A study of Mus musculus with 31 samples.

Results

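The comparison of 2 days covers 8 of the 31 mice whose left hippocampus was sequenced as bulk RNA, and it was made across all 15648 genes of the deposited table. The mice were taken by their labels, as those with the time point 2d. Of these, 4 carried the vector rAAV-hSyn-OVA-mCherry (rAAV-OVA) and 4 the vector rAAV-hSyn-mCherry (rAAV-control), and each group held 2 mice of batch 1 and 2 of batch 2. The other 23 mice were collected at 5, 8 and 28 days, and the 8 mice of 5 days, all of batch 1, are used below where the 2 time points are compared. All mice, controls included, had the genotype OT-I/Rag-/-. In such mice the T cells carry the OT-I receptor, which recognises a peptide of ovalbumin (OVA) on the MHC class I molecule H-2Kb, and the lack of RAG1 leaves no other T cells and no B cells. The vectors were injected into the dorsal CA1 region of both hemispheres of adult mice, whose exact age is not given in the sources used here. The human synapsin promoter (hSyn) drives OVA and mCherry in neurons, so rAAV-OVA neurons present a target to the OT-I cells and rAAV-control neurons do not. Both groups went through the same surgery and both received the anti-inflammatory drug ketoprofen before it and on the days after it. The design therefore asks how the hippocampus with the T cell target differed from the hippocampus with the injury, the vector and mCherry alone, at a time before the later stages of the model.

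A needle track and an AAV vector set off an innate response of their own. Microglia and astrocytes sense tissue damage and viral nucleic acid through Toll-like receptors, whose signal passes through adaptors to the transcription factor NF-kB, and NF-kB induces cytokines, chemokines and its own inhibitors. Chemokines draw neutrophils and monocytes from the blood, complement tags debris for uptake, and astrocytes become reactive, a state in which they express Gfap, Lcn2 and Serpina3n. Interferon-gamma, a product of activated T cells and NK cells, induces guanylate-binding proteins, immunity-related GTPases and the genes of antigen presentation, whereas type I interferons, which infected cells make, induce the Ifit, Oas and Mx genes.

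Promoters hold short sequences that such factors bind, and 4 windows of 30 bases are shown for Igtp, Gbp2, Nfkbia and Nfkb2, which are described below. They are RefSeq promoter sequence of the mouse build GRCm38.p6, written 5′ to 3′ on the strand of the gene, with the motif in capitals. In Igtp and Gbp2 the capitals mark the core of the interferon-stimulated response element, GAAANNGAA or its reverse complement, 26 to 34 bases and 50 to 58 bases before the start of transcription. In Nfkbia and in 1 of the promoters of Nfkb2 they mark the core of an NF-kB site, GGANNTTCC or its reverse complement, 170 to 178 and 216 to 224 bases before it. The promoter of Nfkbia also holds the interferon element, 45 to 53 bases before the start.
Igtp, chr11:58199512-58199541, plus strand: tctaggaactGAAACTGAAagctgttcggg
Gbp2, chr3:142620595-142620624, plus strand: ctcttttagtTTCACTTTCactgtcttaag
Nfkbia, chr12:55492806-55492835, minus strand: ctggtcgggaGGACTTTCCagccactcagg
Nfkb2, chr19:46305696-46305725, plus strand: ggtattttcgGGACTTTCCtaagcagcact

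Over the 250 bases before each start and on both strands, the interferon element was found before 8.18% of the 27025 genes with a RefSeq promoter and the NF-kB core before 4.12%, and the printed matches do not overlap a match of the other motif. The interferon element stood before 12 of the 17 interferon-gamma response genes with a promoter (70.6%), before 11 of 21 type I interferon response genes (52.4%), before 1 of 13 genes of the NF-kB list (7.69%) and before 0 of 13 neutrophil genes. The NF-kB core stood before 4 of 13 genes of the NF-kB list (30.8%), 3 of 13 neutrophil genes (23.1%), 3 of 17 interferon-gamma response genes (17.6%) and 2 of 21 type I interferon response genes (9.52%). Such matches describe letters in a window and not binding in these mice.

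Between 20798247 and 31866682 counts were assigned per library, and TMM factors ran from 0.922 to 1.05. Expression is given as CPM, the counts scaled to a library of 1000000 with these factors, and Log2FC is the fitted log2 ratio of rAAV-OVA to rAAV-control with its standard error (SE). A pair of libraries stood apart. On the first principal component of the 500 most variable genes, which carried 33.9% of their variance, rAAV-control mouse D743 scored 33.9, and the other 7 scored from −19.7 to 14.3. D743 was also the only one of the 31 mice with next to no RNA of Y-linked genes: Ddx3y, Eif2s3y, Kdm5d and Uty together had 6 counts in it and at least 1520 in every other mouse. These genes were chosen after their values were seen. Ddx3y stood at 36.6, 37.3, 40.4 and 36.4 CPM with rAAV-OVA and 36.5, 0.130, 33.6 and 35.6 CPM with rAAV-control. The labels give no sex, and what part this difference plays in the results was not tested. On the second component rAAV-OVA mouse D684 scored −27.3, against −11.8 to 16.5 for the others, and its 10 most abundant genes held 12.4% of its counts, against 7.42% to 10.2%. Ttr, the transthyretin gene and the leading marker of the choroid plexus, stood at 82.03, 4984, 65.997 and 142 CPM with rAAV-OVA and 1959, 1821, 1729.8 and 578 CPM with rAAV-control and differed widely from mouse to mouse, with a Log2FC of −1.52 (SE 1.48) that was −3.87 without D684 and −0.68 to −0.88 without BEC-B541, BEC-B542 or BEC-B544. Over the 16 genes of choroid plexus and ependyma the median was −0.77 with 0 lower and 0 higher at an unadjusted p under 0.05, but −0.50 without D683, −1.98 without D684, and −1.88 with 13 lower without D743 and D684, where 5.34% of all genes were. The part of this tissue in the results was not tested. Markers of the hippocampus were present in all mice. Prox1 of dentate granule neurons lay between 78.95 and 185 CPM, Wfs1 of CA1 neurons between 118 and 241 CPM and Gad2 of interneurons between 103 and 202 CPM. Rag1 had 7.02 ± 0.343 CPM with rAAV-OVA and 5.38 ± 0.342 CPM with rAAV-control, and gene counts cannot show whether its coding part is deleted. Of 68 genes given below or in the closing observations with a Log2FC of 0.66 or more in either direction, 12 had a value over 1.5 times smaller without D743 and 8 without BEC-B542, and their values without these mice stand beside them, as do those of lists that moved as far with a median of at least 0.3 in size. Of 62 other genes, with a smaller Log2FC, 13 changed sign without some single mouse and 16 more moved by over 1.5 times. Of 37 lists with a median under 0.3 in size, 14 changed sign and 22 more moved as far, so no direction is read from these smaller medians. Per-mouse values follow 1 order throughout, D683, D684, BEC-B541 and BEC-B542 for rAAV-OVA and D740, D743, BEC-B544 and BEC-R385 for rAAV-control, with the batch 1 mice first in each group.

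No gene met the limits for a differentially expressed gene (DEG), an FDR no higher than 0.05 with a Log2FC of 0.66 or more in either direction, in the edgeR quasi-likelihood test of rAAV-OVA against rAAV-control with the batch label as covariate. That is 0 of 15648 genes (0%), with 1621 genes (10.4%) at an unadjusted p under 0.05, 765 of them higher in rAAV-OVA mice (4.89% of all genes) and 856 lower (5.47%). The lowest FDR was 0.215, for Malat1 and Gm9797, and every other gene had an FDR of at least 0.403 in this test, so the differences at 2 days that follow are values and not calls. Groups that did not overlap, all 4 mice of one above all 4 of the other, were found for 347 genes higher in rAAV-OVA mice (2.22%) and 303 lower (1.94%). DESeq2's Wald test on the same 8 mice and covariate gave 79 DEGs, 8 higher and 71 lower, and DESeq2 with 2 surrogate variables and shrunken Log2FC on all 31 mice gave 10, all lower. With each mouse left out in turn, edgeR gave 3 DEGs without D684, namely Aqp1, Col8a2 and Igfbp2, all lower in rAAV-OVA mice, and 0 without any other mouse. The 71 genes lower in DESeq2's test included Cd14, Chil1, Clec4d, Csf3r, Il1b, Cxcl16, C5ar1, A2m and Ms4a6c, which are described below among the innate lists.

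Malat1 (ENSMUSG00000092341), a long noncoding RNA kept in the nucleus of nearly all cells, shared the lowest FDR with Gm9797. It stood at 185, 176, 232 and 263 CPM with rAAV-OVA and 121, 99.1, 165 and 147 CPM with rAAV-control. All rAAV-OVA mice lay above all rAAV-control mice, with a Log2FC of 0.69 (SE 0.087), and of 0.72 in batch 1 and 0.67 in batch 2. Gm9797 had 68, 38, 35 and 25 counts in rAAV-OVA mice and 0 in all 4 rAAV-control mice, but mice at 0 and mice with counts also stood side by side in each of the 6 groups of later days. Among the other genes with the lowest p values and no overlap that were higher, Ppp1cb, a catalytic subunit of protein phosphatase 1, had 353, 400.1, 315 and 318 CPM with rAAV-OVA and 285, 259.5, 240.0 and 257 CPM with rAAV-control, with a Log2FC of 0.41 (SE 0.075). Tmem30a, a partner of lipid flippases, had a Log2FC of 0.41 (SE 0.079). Hycc2, Vma21, Scai, Dr1, Dsel, Dcun1d1 and Lnpk lay between 0.35 and 0.51.

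The 10 named genes on the lower side included genes of dividing cells and genes of leukocytes and microglia. Knstrn (ENSMUSG00000027331), which encodes a protein of the mitotic spindle, stood at 2.28, 2.45, 2.49 and 2.29 CPM with rAAV-OVA and 5.45, 5.85, 3.42 and 5.28 CPM with rAAV-control, with a Log2FC of −1.06 (SE 0.19). Birc5, Prc1 and Ncapg, which act at chromosome segregation and cell division, had Log2FC of −1.15, −1.08 and −1.59. Fcrl2, a microglial Fc receptor-like gene known as Fcrls in older annotation, stood at 57.9, 47.2, 51.9 and 33.5 CPM with rAAV-OVA and 81.3, 105, 58.6 and 78.5 CPM with rAAV-control, with a Log2FC of −0.75 (SE 0.17). Inpp5d, a lipid phosphatase of microglia and blood cells, had a Log2FC of −0.63, and Naip2, which senses bacterial proteins for an inflammasome, of −0.98. Akna, a transcriptional regulator and centrosome protein, stood at −0.88, Sema4c, a plexin ligand, at −0.49 and Plekhg2 at −0.65. For each of these 10 genes the 4 rAAV-OVA mice lay below the 4 rAAV-control mice.

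Neutrophil genes had lower values in rAAV-OVA than in rAAV-control mice, and the controls of batch 1 were the highest of the 8 mice. Of 36 genes listed as expressed by neutrophils, 16 were in the table, and the defining granule genes such as Ngp, Camp, Ltf, Elane, Mpo and the surface marker Ly6g were not among the genes analysed here. Of the 16, 9 were lower at an unadjusted p under 0.05 and 0 higher, and 3 were lower with no overlap between the groups, where 5.47% and 1.94% of all genes were. All 16 Log2FC were below 0, as were 46.7% of those of all genes, and their median was −1.84, against 0.013 over all genes. Summed over the 16 genes, the level was 62.2, 64.2, 80.05 and 50.9 CPM with rAAV-OVA and 342, 895, 82.6 and 168 CPM with rAAV-control. D743 and D740 were highest and BEC-R385 came next, while BEC-B544 lay next to the highest rAAV-OVA mouse.

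Lcn2 (ENSMUSG00000026822) encodes lipocalin 2, a protein of neutrophil granules that reactive astrocytes also make. It stood at 20.1, 16.1, 32.8 and 17.04 CPM with rAAV-OVA and 158, 517, 32.6 and 76.7 CPM with rAAV-control, with a Log2FC of −2.67 (SE 0.83), and of −4.22 in batch 1 and −1.13 in batch 2. S100a8, a subunit of the neutrophil protein calprotectin, stood at 0.298, 1.50, 0.497 and 0.225 CPM with rAAV-OVA and 10.1, 28.9, 0.242 and 0.460 CPM with rAAV-control, with a Log2FC of −2.89 (SE 1.11), which was −1.92 without D743 and −1.91 without D683, so only the batch 1 controls were high and the batch 2 mice of both groups lay between 0.225 and 0.497 CPM. Chil1, a chitinase-like gene of neutrophils and reactive astrocytes, stood at 16.3, 20.4, 21.1 and 12.5 CPM with rAAV-OVA and 106, 206, 20.7 and 56.4 CPM with rAAV-control, with a Log2FC of −2.15 (SE 0.54). Csf3r, the receptor for the growth factor of neutrophils, had 7.76, 5.71, 9.98 and 7.34 CPM with rAAV-OVA and 13.5, 26.95, 12.7 and 12.9 CPM with rAAV-control, and its groups did not overlap (Log2FC −1.07, SE 0.29).

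The groups did not overlap either for Ptger4, a prostaglandin E2 receptor, or for Clec4d, a C-type lectin receptor of myeloid cells. Ptger4 stood at 0.783, 1.33, 1.49 and 1.35 CPM with rAAV-OVA and 2.96, 10.1, 2.06 and 3.86 CPM with rAAV-control, with a Log2FC of −1.83 (SE 0.51). Clec4d had 0.112, 0.301, 0.166 and 0.412 CPM with rAAV-OVA and 2.58, 11.9, 0.423 and 0.637 CPM with rAAV-control, a low level in most mice, and Log2FC of −5.14 in batch 1 and −0.88 in batch 2. Il1b, the gene of the cytokine interleukin-1 beta, stood at 0.671, 1.55, 0.762 and 0.637 CPM with rAAV-OVA and 7.74, 10.01, 0.756 and 1.20 CPM with rAAV-control, with a Log2FC of −1.86 (SE 0.56). Hp, the haptoglobin gene, had 0.560, 0.429, 0.398 and 0.412 CPM with rAAV-OVA and 4.02, 25.3, 0.332 and 0.354 CPM with rAAV-control and overlapped, with Log2FC of −4.87 in batch 1 and 0.24 in batch 2, and of −2.86 in all 8 mice against −1.42 without D743.

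The list was lower in both batches by its median, −2.82 in batch 1 and −0.43 in batch 2. In 8 of the 16 genes the response differed between the batches at an unadjusted p under 0.05, against 3.18% of all genes. All 8 had the higher response in batch 2. Within batch 2, 4 of the 16 were lower and 1 was higher without overlap, against 17.6% and 18.5% of all genes. Without D743, 8 of 16 were still lower at an unadjusted p under 0.05, against 3.08% of all genes in that fit, and the median was −1.32. Without D743 and D684 the count was 3, against 5.34%, and the median −1.18. Of the 16 genes, 8 also stand in other lists, mainly those of monocytes and reactive astrocytes, and the 8 in this list alone had a median of −1.61. Bulk RNA cannot tell fewer cells of a type from less RNA per cell.

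Genes that sense microbes and damage had lower values in rAAV-OVA mice in most members of their list. Of 21 Toll-like receptor genes listed, 20 were tested, and 13 were lower and 0 higher at an unadjusted p under 0.05, against 5.47% and 4.89% of all genes. Groups that did not overlap were found for 7, all lower, against 1.94% of all genes. The median Log2FC was −0.62, with −0.85 in batch 1 and −0.36 in batch 2. Cd14, the co-receptor that hands bacterial lipids to Toll-like receptors, stood at 6.01, 5.62, 6.73 and 2.81 CPM with rAAV-OVA and 25.5, 27.99, 7.13 and 9.74 CPM with rAAV-control, with a Log2FC of −1.52 (SE 0.36), the lowest rAAV-control mouse lying above every rAAV-OVA mouse. Tlr13, a sensor of bacterial ribosomal RNA, stood at 7.31, 5.50, 10.1 and 4.79 CPM with rAAV-OVA and 17.6, 24.1, 10.5 and 14.8 CPM with rAAV-control, with a Log2FC of −1.23 (SE 0.30). Tlr7, the sensor of single-stranded RNA, and Unc93b1, which carries the nucleic acid sensors to endosomes, had Log2FC of −0.62 and −0.57 without overlap, as did Tlr6 (−0.81), the kinase gene Irak4 (−0.62) and the adaptor gene Ticam1 (−0.43). Tlr2, the receptor of bacterial lipopeptides, had the largest difference of the receptors, −1.81 (SE 0.51), with 7.35, 5.07, 13.6 and 6.29 CPM with rAAV-OVA and 28.7, 57.4, 13.6 and 22.5 CPM with rAAV-control, and its groups overlapped at BEC-B541 and BEC-B544. Tlr9, the sensor of the unmethylated CpG DNA that AAV genomes can carry, stood at 2.57, 1.85, 4.77 and 4.72 CPM with rAAV-OVA and 4.45, 7.58, 4.84 and 5.59 CPM with rAAV-control, a Log2FC of −0.77 (SE 0.31) that was −0.47 without D743. Tlr3, Tlr4 and the adaptor gene Myd88 had Log2FC of 0.24, −0.12 and −0.12, but Tlr3 was at 0.055 without BEC-B542, and Tlr4 and Myd88 were at 0.12 and 0.10 without D743. Without D743 the median of the list was −0.45, and 9 of 20 were lower at an unadjusted p under 0.05, against 3.08% of all genes.

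The NF-kB genes lay in the same direction with smaller values. Of 17 tested genes that encode its subunits, kinases and inhibitors, 9 were lower at an unadjusted p under 0.05 and 0 higher, and 4 were lower without overlap, against 5.47% and 1.94% of all genes lower. Their median was −0.50 (−0.95 in batch 1 and −0.089 in batch 2). Nfkb2, the gene of the p100 precursor, stood at 4.10, 3.99, 6.03 and 4.79 CPM with rAAV-OVA and 10.3, 15.99, 6.20 and 8.11 CPM with rAAV-control, with a Log2FC of −1.04 (SE 0.29). Nfkb1, of the p105 precursor, stood at 20.4, 17.001, 21.3 and 20.6 CPM with rAAV-OVA and 23.9, 33.5, 23.1 and 28.6 CPM with rAAV-control, with a Log2FC of −0.46 (SE 0.14), and Rela and the feedback gene Tnip1 had −0.32 and −0.50, all without overlap. Nfkbia, the inhibitor whose promoter site is shown above, stood at 28.2, 18.98, 30.7 and 29.4 CPM with rAAV-OVA and 60.04, 48.4, 29.1 and 28.4 CPM with rAAV-control, so its Log2FC was −1.20 in batch 1 and 0.064 in batch 2. Of the 17 genes, 8 had a response that differed between the batches at an unadjusted p under 0.05, against 3.18% of all genes. Without D743 the median was −0.34, and 7 genes were lower at an unadjusted p under 0.05, against 3.08% of all genes.

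Of 19 cytokine genes listed, 12 were tested, and Il6, Il10, Csf2 and Csf3 were not among the genes analysed here. Of these 12, 4 were lower at an unadjusted p under 0.05 and 0 higher, against 5.47% and 4.89% of all genes, with a median of −0.75 (−1.35 in batch 1 and −0.27 in batch 2), and without D743 the count was 2, against 3.08% of all genes, and the median −0.59. Tnf, the tumour necrosis factor gene, stood at 0.112, 0.429, 0.0331 and 0.974 CPM with rAAV-OVA and 1.63, 4.85, 0.484 and 1.10 CPM with rAAV-control, with a Log2FC of −2.10 (SE 0.97), and −3.73 without BEC-B542. Tgfb1, of transforming growth factor beta, had 8.69, 5.67, 9.71 and 8.39 CPM with rAAV-OVA and 12.5, 21.1, 11.2 and 14.8 CPM with rAAV-control and did not overlap (Log2FC −0.87, SE 0.24). Of 18 chemokine genes tested, 4 were lower and 1 higher at an unadjusted p under 0.05, against the same shares, and the median was −0.25, with −0.45 without BEC-B542 and −0.11 without D740. Cxcl16, a chemokine of macrophages and microglia, stood at 10.6, 9.49, 14.1 and 9.36 CPM with rAAV-OVA and 30.5, 54.2, 14.1 and 23.02 CPM with rAAV-control, with a Log2FC of −1.37 (SE 0.36) and no overlap before rounding. Ccl3, which draws monocytes and T cells, stood at 0.634, 0.343, 1.89 and 1.46 CPM with rAAV-OVA and 6.07, 18.8, 1.45 and 2.90 CPM with rAAV-control, high only in the batch 1 controls, with Log2FC of −4.64 in batch 1 and −0.37 in batch 2. Cx3cl1, the neuronal ligand of the microglial receptor Cx3cr1, was the most abundant chemokine gene and stood at 585 ± 116 CPM with rAAV-OVA and 573 ± 61.2 CPM with rAAV-control (SD, n = 4 each), with a Log2FC of 0.026 (SE 0.12). The chemokines induced by interferon-gamma lay on the other side, with Cxcl9 at 1.42 and Cxcl10 at 0.90, and both overlapped. Without BEC-B542 these were 0.92 and −0.58, and without BEC-B544 Cxcl10 was at 0.54.

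Complement genes were mostly lower, with 10 of 17 lower and 1, C2, higher at an unadjusted p under 0.05, and 3 lower without overlap, against 5.47%, 4.89% and 1.94% of all genes. Their median was −0.78, with −1.34 in batch 1 and −0.24 in batch 2. C3, the central component that all complement pathways cleave, stood at 22.9, 15.7, 32.02 and 29.5 CPM with rAAV-OVA and 118, 360.3, 31.8 and 82.6 CPM with rAAV-control, with a Log2FC of −2.25 (SE 0.73), D743 being the highest. The receptor gene C5ar1 stood at 2.16, 1.59, 2.65 and 2.06 CPM with rAAV-OVA and 5.93, 13.8, 3.23 and 3.82 CPM with rAAV-control, with −1.48 (SE 0.44) and no overlap, and Cfp, the properdin gene, at 3.54, 4.77, 5.01 and 3.63 CPM with rAAV-OVA and 6.93, 25.7, 6.80 and 6.94 CPM with rAAV-control, with −1.32 (SE 0.45), or −0.70 without D743. The 3 genes of C1q, which microglia express strongly, differed less, with a Log2FC of −0.35 each. C2 lies in the MHC region and had a Log2FC of 0.73 (SE 0.27). The median of the list was −0.34 without D743, with 8 genes lower at an unadjusted p under 0.05, against 3.08% of all genes.

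**Figure D1:**
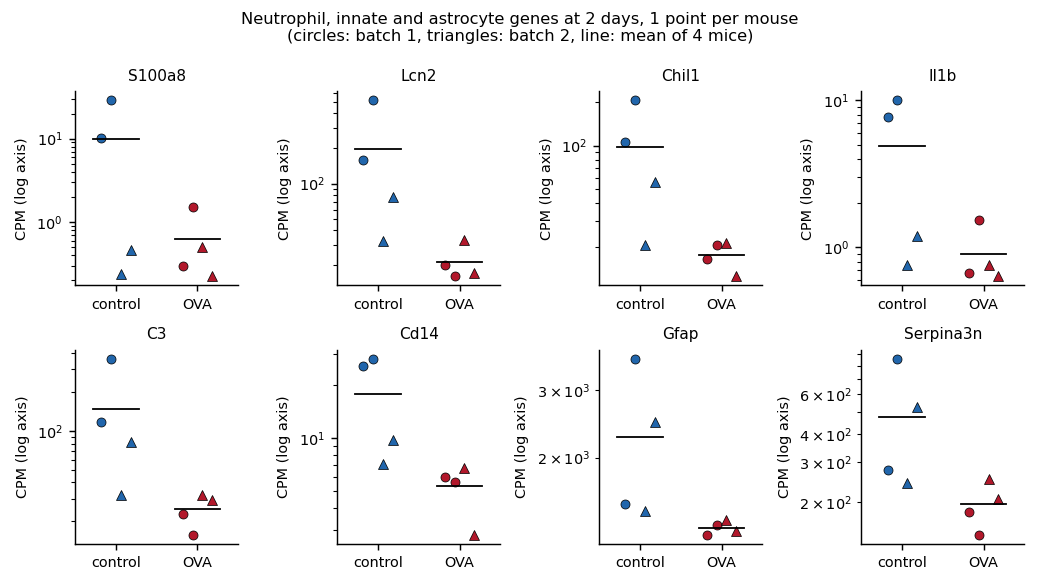
Expression of 8 neutrophil, innate and astrocyte genes in CPM on a log axis, 1 point per mouse, for rAAV-control (blue) and rAAV-OVA (red) at 2 days, with batch 1 as circles, batch 2 as triangles and the mean of 4 mice as a line. Control mouse D743 is the highest point for Lcn2 at 517 CPM and the batch 2 points of S100a8 lie between 0.225 and 0.497 CPM in both groups, while for Cd14 and Gfap all 4 rAAV-OVA mice lie below all 4 rAAV-control mice.

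Astrocytes showed the lower side of the comparison in their reactive genes and smaller differences in the genes of their resting functions. Of 13 tested genes that reactive astrocytes share across kinds of injury, 10 were lower and 0 higher at an unadjusted p under 0.05, and 2 were lower without overlap. The shares of all genes were 5.47%, 4.89% and 1.94%. The median was −1.25, with −1.80 in batch 1 and −0.71 in batch 2. Gfap (ENSMUSG00000020932), the intermediate filament gene by which reactive astrocytes are known, stood at 1260.1, 1333, 1379.6 and 1288 CPM with rAAV-OVA and 1516, 3608, 1456 and 2470.0 CPM with rAAV-control, with a Log2FC of −0.77 (SE 0.28), or −0.43 without D743, and every rAAV-OVA mouse lay below every rAAV-control mouse. Hspb1, a small heat shock protein, did not overlap either, at 5.97, 6.91, 5.01 and 4.35 CPM with rAAV-OVA and 8.08, 19.3, 7.98 and 7.58 CPM with rAAV-control (Log2FC −0.91, SE 0.25, and −0.57 without D743). Serpina3n, a protease inhibitor of reactive astrocytes, stood at 181, 143, 253 and 206 CPM with rAAV-OVA and 277, 857, 243 and 526 CPM with rAAV-control, with a Log2FC of −1.27 (SE 0.43), −0.76 without D743, and an overlap at BEC-B544. Vim and Timp1, an intermediate filament gene and a metalloproteinase inhibitor, had Log2FC of −1.27 and −2.08, or −0.60 and −0.95 without D743, and Timp1 reached 116 CPM in D743 against 5.88 to 22.5 CPM in the other 7 mice. Cxcl10 was the only member above 0.

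Without D743 the median of the shared reactive list was −0.60 with 7 genes lower at an unadjusted p under 0.05, and without D743 and D684 it was −0.61 with 1 gene, against 3.08% and 5.34% of all genes. Without BEC-B542 it was −1.26 with 6 genes, against 4.67% of all genes in that fit. Among 12 genes assigned to the A1 state, which is named for inflammation, 2 were lower and 1 was higher at an unadjusted p under 0.05, against 5.47% and 4.89% of all genes, and the list held C3 beside the interferon-induced genes Iigp1 and Gbp2 (Log2FC 2.23 and 1.70), with a median of −0.12, which was 0.052 without D743 and −0.29 without BEC-B542. The 11 genes of the A2 state, which is named for ischaemia, had a median of −0.49, with 4 lower and 0 higher, and Tgm1, a transglutaminase, stood at 6.79, 5.02, 17.9 and 18.8 CPM with rAAV-OVA and 15.2, 126, 12.997 and 54.6 CPM with rAAV-control, with a Log2FC of −2.18 (SE 0.92), or −1.06 without D743. Without D743 the median of the A2 list was −0.23 and 1 gene was lower, against 3.08% of all genes, and without BEC-B544 the median was −0.78. Of 18 further genes of reactive astrocytes, 8 were lower and 0 higher, with a median of −0.55, which was −0.28 with 6 lower without D743. A2m, a broad protease inhibitor, stood at 22.8, 21.9, 25.8 and 18.3 CPM with rAAV-OVA and 53.1, 139, 29.3 and 79.4 CPM with rAAV-control without overlap, with a Log2FC of −1.70 (SE 0.42), −2.10 in batch 1 and −1.30 in batch 2. The metallothioneins Mt1 and Mt2, which glucocorticoids and metals induce, had Log2FC of −0.48 and −0.67.

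The 18 genes of resting astrocytes had a smaller median of −0.11 (−0.11 in batch 1 and −0.12 in batch 2, and −0.048 in all without BEC-B542). Of these, 3 were lower and 0 higher at an unadjusted p under 0.05, against 5.47% and 4.89% of all genes. Within batch 1, 7 were lower and 1 higher without overlap, against 19% and 18.8% of all genes. Within batch 2, 6 were lower and 0 higher, against 17.6% and 18.5%. Slc1a2, the main glutamate transporter, stood at 3219 ± 249 CPM with rAAV-OVA and 3131 ± 286 CPM with rAAV-control (SD, n = 4 each), a Log2FC of 0.038 (SE 0.094). Aqp4, the water channel of astrocyte endfeet, had −0.27 (SE 0.21) and Aldh1l1, a folate enzyme used as an astrocyte marker, −0.52 (SE 0.21), which were −0.059 and −0.27 without D743. Kcnj10, the potassium channel Kir4.1, was the exception without overlap, at 258, 252, 338 and 287 CPM with rAAV-OVA and 347, 630.2, 345 and 368 CPM with rAAV-control, with a Log2FC of −0.56 (SE 0.22) and D743 far above the rest, and without D743 it was −0.29.

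Microglia differed by gene. Of 17 genes of resting microglia, 6 were lower and 0 higher at an unadjusted p under 0.05, and 3 were lower without overlap, against 5.47%, 4.89% and 1.94% of all genes. Their median was −0.19 (−0.030 in batch 1 and −0.19 in batch 2), with −0.10 without BEC-B542 and −0.082 without D740. Cx3cr1, the fractalkine receptor, stood at 79.5, 68.2, 102 and 68.3 CPM with rAAV-OVA and 109, 152, 109 and 137 CPM with rAAV-control, with a Log2FC of −0.67 (SE 0.17). Csf1r, the receptor on which microglia depend for survival, stood at 188, 145, 188 and 195 CPM with rAAV-OVA and 210.0, 247, 200.4 and 252 CPM with rAAV-control, with −0.35 (SE 0.12), and both were without overlap, as was Fcrl2 above. P2ry12, the ADP receptor by which resting microglia are known, had the opposite sign, with D743 lowest at 16.4 CPM. It stood at 51.3, 47.01, 34.4 and 33.4 CPM with rAAV-OVA and 33.6, 16.4, 30.1 and 34.1 CPM with rAAV-control, a Log2FC of 0.53 (SE 0.26), or 0.26 without D743.

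Of 22 genes of activated microglia, 11 were lower and 0 higher at an unadjusted p under 0.05, against 5.47% and 4.89% of all genes, with a median of −0.36 (−0.41 in batch 1 and −0.34 in batch 2). The lysosomal genes Cd68, at 18.9, 14.5, 23.1 and 15.5 CPM with rAAV-OVA and 25.5, 44.5, 24.2 and 37.5 CPM with rAAV-control (Log2FC −0.87, SE 0.24), and Ctsz, a cathepsin with a Log2FC of −0.64 (SE 0.19), did not overlap. Apoe and Trem2, which mark the disease-associated state, had −0.063 and −0.18. With 1 mouse left out Apoe ran from −0.17 without D743 to 0.023 without BEC-B542, and Trem2 from −0.29 without D684 to −0.037 without BEC-B542. Without D743, 5 of 22 were lower at an unadjusted p under 0.05, against 3.08% of all genes, with a median of −0.26.

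Of 26 genes of monocytes and macrophages from the blood, 6 were lower and 0 higher at an unadjusted p under 0.05, against 5.47% and 4.89% of all genes, with a median of −0.55 (−1.13 in batch 1 and −0.084 in batch 2), which was −0.20 without D743. Of the 26 genes, 5 reached 15 counts in fewer than 4 of the 8 mice of 2 days and so passed the filter of the deposited table through later mice. Lyz2, the lysozyme gene of myeloid cells, stood at 88.8, 132, 109 and 43.5 CPM with rAAV-OVA and 302, 899, 134 and 207 CPM with rAAV-control, with a Log2FC of −1.81 (SE 0.50) and no overlap. Ms4a6c, a membrane protein of myeloid cells, had 10.1, 8.24, 10.5 and 6.52 CPM with rAAV-OVA and 28.3, 37.2, 11.2 and 14.4 CPM with rAAV-control, also without overlap (Log2FC −1.21, SE 0.29). Ccr2, the receptor that brings monocytes out of the bone marrow and into tissue, stood at 7.27, 6.91, 9.48 and 4.12 CPM with rAAV-OVA and 8.65, 13.4, 12.4 and 12.2 CPM with rAAV-control, with a Log2FC of −0.74 (SE 0.25). The plot of list medians by batch and by day shows these groups side by side.

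**Figure D2:**
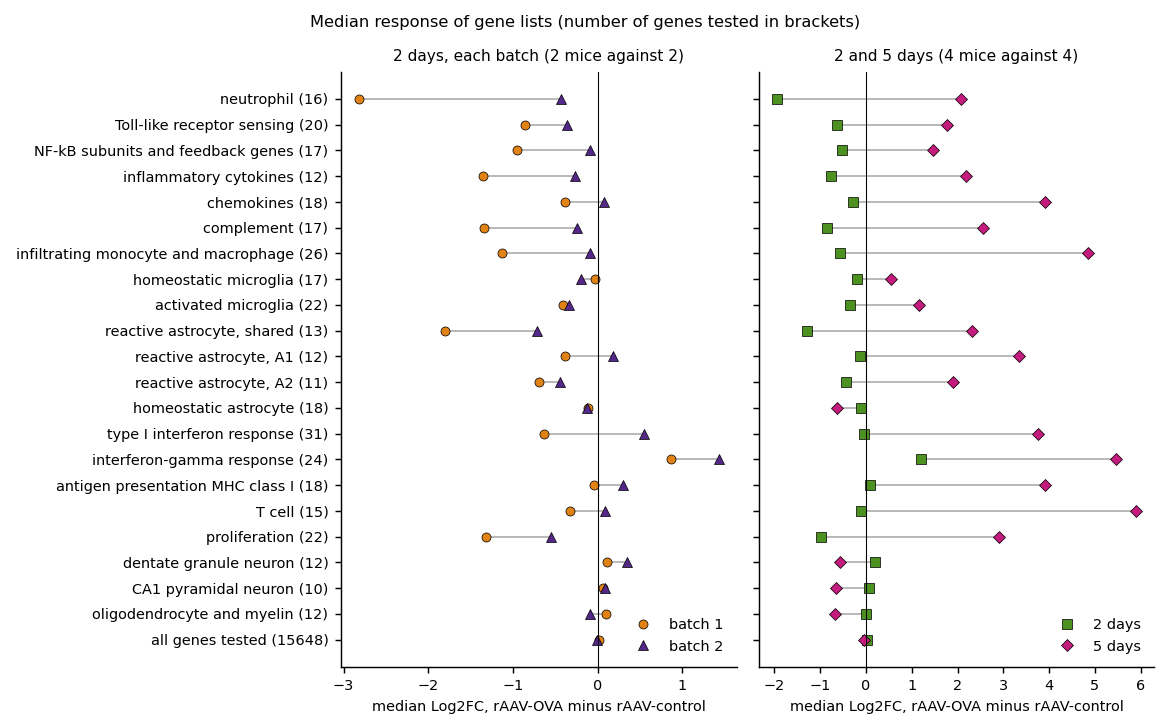
Median Log2FC of gene lists, rAAV-OVA minus rAAV-control, with the number of genes tested in brackets. Left, each batch at 2 days (2 mice against 2), where the neutrophil list is at −2.82 in batch 1 and −0.43 in batch 2. Right, 2 and 5 days in the fit of all 31 mice (4 against 4), where the proliferation list is at 2.90 and the interferon-gamma response list at 5.45 at 5 days. The points of the neutrophil, T cell, monocyte and chemokine lists rest in part on members that are in the table through later mice.

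Genes of dividing cells had lower values in rAAV-OVA mice throughout their list. All 22 Log2FC were below 0, in the 8 mice together and in each batch, where 46.7% of those of all genes were in the 8 mice, 47.2% in batch 1 and 50.5% in batch 2. Of the list, 20 of 22 were lower at an unadjusted p under 0.05, with 8 lower without overlap, against 5.47% and 1.94% of all genes. The median was −0.99, with −1.32 in batch 1 and −0.55 in batch 2. Without D743, 17 of 22 were lower at an unadjusted p under 0.05 with a median of −0.73, and without D743 and D684, 13 of 22 with −0.79, against 3.08% and 5.34% of all genes. Summed, the list stood at 77.1, 79.4, 135 and 113 CPM with rAAV-OVA and 148, 228, 131 and 203 CPM with rAAV-control, so BEC-B541 lay among the controls of its own batch. Cdk1, the kinase that starts mitosis, stood at 2.24, 3.13, 3.65 and 2.92 CPM with rAAV-OVA and 6.74, 7.50, 3.87 and 6.06 CPM with rAAV-control, with a Log2FC of −0.99 (SE 0.24). Its partner Ccnb2, cyclin B2, stood at 1.64, 1.63, 2.42 and 2.02 CPM with rAAV-OVA and 3.35, 5.42, 2.81 and 4.11 CPM with rAAV-control (Log2FC −1.02, SE 0.26), and Birc5, survivin, at 1.68, 1.93, 1.96 and 1.69 CPM with rAAV-OVA and 3.25, 5.42, 2.66 and 4.89 CPM with rAAV-control (Log2FC −1.15, SE 0.26). None of these 3 overlapped. Top2a, which untangles DNA in dividing cells, and Mki67 were higher in level and overlapped, with Log2FC of −1.17 (SE 0.35) and −1.32 (SE 0.36). Foxm1, a transcription factor of the cell cycle that is not in the list, had −1.01 (SE 0.34). Which cells divide cannot be read from bulk RNA.

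The interferon-gamma response genes had higher values in rAAV-OVA mice in all members, and BEC-B542 was the highest mouse by far. All 24 Log2FC were above 0, where 46.7% of those of all genes were below 0, with a median of 1.20 (0.87 in batch 1 and 1.43 in batch 2). Only 2 were higher at an unadjusted p under 0.05 and 0 were higher without overlap, against 4.89% and 2.22% of all genes. Igtp (ENSMUSG00000078853), an immunity-related GTPase with the promoter element shown above, stood at 93.5, 49.3, 10.9 and 276 CPM with rAAV-OVA and 20.9, 16.1, 27.5 and 37.5 CPM with rAAV-control. BEC-B542 was highest and BEC-B541, of the same group and batch, lowest, and D683 and D684 lay above all 4 controls. Iigp1, a GTPase of the same family, was also highest in BEC-B542 and lowest in BEC-B541, at 55.2, 29.3, 5.40 and 177 CPM with rAAV-OVA and 15.1, 7.45, 9.43 and 22.3 CPM with rAAV-control, with a Log2FC of 2.23 (SE 0.92), against 2.05 (SE 0.82) for Igtp. Gbp2 stood at 123, 67.8, 15.4 and 390.0 CPM with rAAV-OVA and 39.1, 39.5, 29.9 and 63.99 CPM with rAAV-control (Log2FC 1.70, SE 0.84). Without BEC-B542 the Log2FC were 0.81 for Igtp, 0.79 for Iigp1 and 0.32 for Gbp2.

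The sum over the 24 genes was 811, 483, 158 and 2302 CPM with rAAV-OVA and 372, 325, 278 and 483 CPM with rAAV-control, so the rAAV-OVA mice ran over a range that held all the controls. Without BEC-B542 the median Log2FC was 0.14 and 9 of 24 genes were below 0, and without BEC-B541 it was 1.55. Salmon divides reads among similar transcripts, so single members of the Gbp, Irgm and Tgtp families are uncertain. In the type I interferon list 0 of 31 genes were higher and 0 lower at an unadjusted p under 0.05, with a median of −0.001, but without BEC-B542 the median was −0.50 and 10 were lower, against 4.67% of all genes in that fit. The medians had unlike signs, −0.63 in batch 1 and 0.55 in batch 2, with 28 of 31 genes below 0 in the first and 2 in the second. Ifit1 and Isg15, which block viral RNA and modify proteins, stood at −0.11 and 0.23, but without BEC-B542 at −0.71 and −0.69, and Ifit1 stood at 0.30 without D740. Cmpk2, a nucleotide kinase next to Rsad2, stood at 33.3, 26.7, 21.5 and 35.6 CPM with rAAV-OVA and 30.02, 24.2, 21.7 and 20.2 CPM with rAAV-control.

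**Figure D3:**
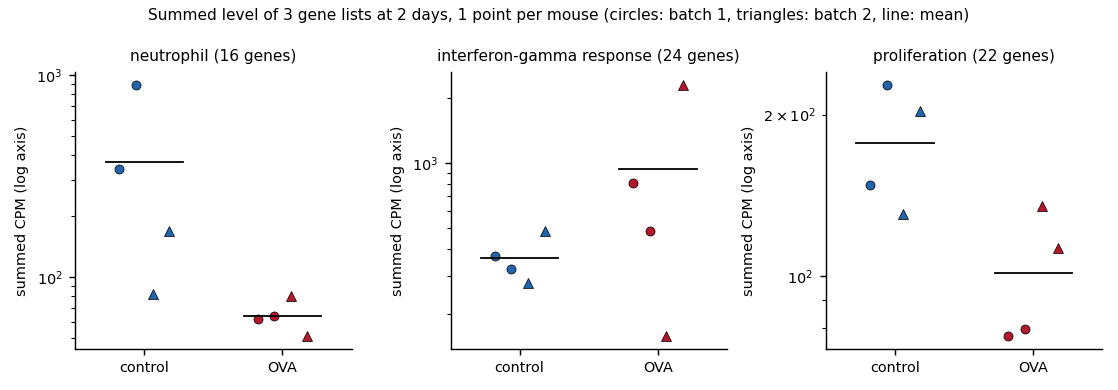
Summed CPM of the neutrophil, interferon-gamma response and proliferation lists at 2 days on a log axis, 1 point per mouse, with batch 1 as circles, batch 2 as triangles and the mean of 4 mice as a line. The rAAV-OVA mice lie between 50.9 and 80.05 CPM for the neutrophil list and between 158 and 2302 CPM for the interferon-gamma response list.

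Antigen presentation genes had small median differences whose sign changed with the mouse left out. The 18 MHC class I genes had a median of 0.084 and the 7 class II genes of 0.074, with 0 of the class I and 0 of the class II genes higher, and 0 and 0 lower, at an unadjusted p under 0.05. With 1 mouse left out the class I median ran from −0.22 without BEC-B542 to 0.23 without D743, and the class II median from −0.16 without BEC-B542 to 0.29 without BEC-B541. H2-K1, which encodes the H-2K molecule that shows the OVA peptide to OT-I cells, stood at 112, 79.1, 115 and 113 CPM with rAAV-OVA and 104, 177, 125 and 146 CPM with rAAV-control, a Log2FC of −0.40 (SE 0.18), and B2m, its light chain, had −0.20 (SE 0.15), and without D743 these were −0.20 and −0.043. Cd74, the invariant chain of class II molecules, stood at 59.98, 31.9, 33.7 and 80.6 CPM with rAAV-OVA and 31.9, 50.96, 55.2 and 64.1 CPM with rAAV-control (Log2FC 0.042, SE 0.31).

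**Figure D4:**
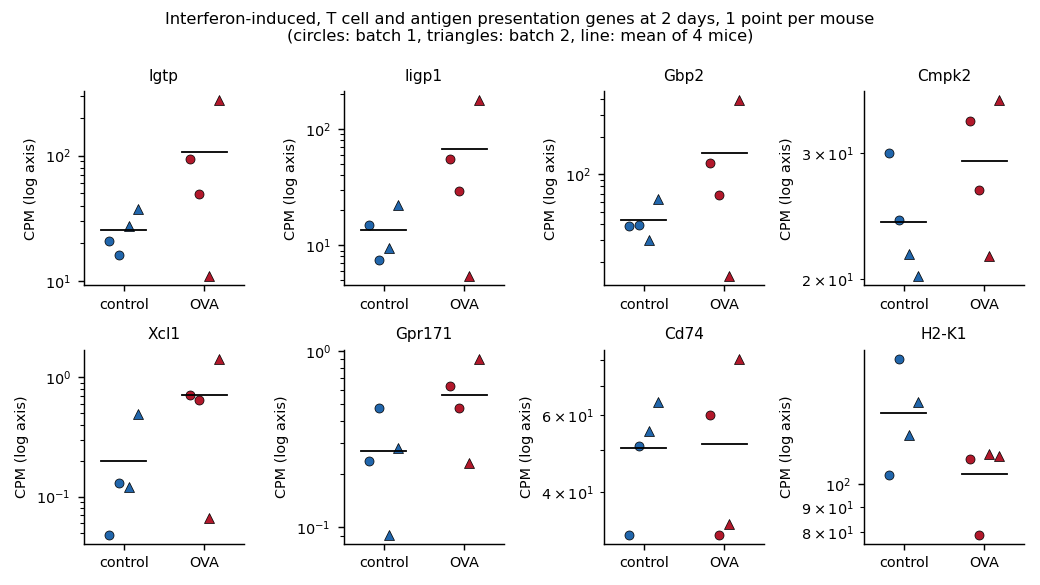
Expression of 8 interferon-induced, T cell and antigen presentation genes in CPM on a log axis at 2 days, 1 point per mouse, with rAAV-control in blue, rAAV-OVA in red, batch 1 as circles, batch 2 as triangles and the mean of 4 mice as a line. For Igtp the highest rAAV-OVA mouse is at 276 CPM and the lowest at 10.9 CPM, both of batch 2, and for H2-K1 the groups overlap.

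T cell genes stood at low levels in both groups. Of 29 genes listed, 15 were tested, and the genes Cd3d, Cd3e, Cd3g and Ifng were not among those analysed here. None was higher or lower at an unadjusted p under 0.05 and the median Log2FC was −0.11 (−0.33 in batch 1 and 0.084 in batch 2), with −0.28 without BEC-B544 and −0.045 without D740. The sum over the 15 genes was 20.1, 15.1, 16.7 and 18.6 CPM with rAAV-OVA and 24.5, 20.8, 16.4 and 18.1 CPM with rAAV-control, and Trac, the constant part of the T cell receptor alpha chain, gave much of it in both groups, at 6.96 ± 1.80 CPM with rAAV-OVA and 7.32 ± 1.27 CPM with rAAV-control (SD, n = 4 each). Cd8a (ENSMUSG00000053977), a chain of the co-receptor of cytotoxic T cells, stood at 0.112, 0, 0.166 and 0.262 CPM with rAAV-OVA and 0.287, 0.260, 0.212 and 0.602 CPM with rAAV-control, or 3, 0, 5 and 7 counts in the 4 rAAV-OVA libraries. Gzmb, granzyme B, stood at 0.485, 0.258, 0 and 0.524 CPM with rAAV-OVA and 0.335, 0.477, 0.302 and 0.106 CPM with rAAV-control. Xcl1, a chemokine that activated CD8 T cells secrete, had 0.709, 0.644, 0.0663 and 1.42 CPM with rAAV-OVA and 0.0478, 0.130, 0.121 and 0.496 CPM with rAAV-control, and Gpr171, a receptor of T cells, 0.634, 0.472, 0.232 and 0.899 CPM with rAAV-OVA and 0.239, 0.477, 0.0907 and 0.283 CPM with rAAV-control. Their Log2FC were 1.84 (SE 0.86) and 1.08 (SE 0.55), and 0.99 and 0.52 without BEC-B542. Of the 15 genes, 8 reached 15 counts in fewer than 4 of the 8 mice of 2 days, Cd8a, Gzmb, Xcl1 and Gpr171 among them, and so passed the filter of the deposited table through mice of later days. For this reason no count or median over the list is written out for 5 days, and its 5 day point in the plot of list medians carries this selection. The response of Cd8a at 5 days differed from that at 2 days by 7.74 (SE 1.86, FDR 0.00445), a value that carries the same selection, and its call was lost with the batch 1 mice alone. Of the markers of other lymphocytes tested, Cd79b of B cells had 0.444 ± 0.140 CPM with rAAV-OVA and 0.893 ± 0.285 CPM with rAAV-control. Klrk1 of NK cells had 0.478 ± 0.243 CPM with rAAV-OVA and 0.518 ± 0.125 CPM with rAAV-control.

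The vectors are built to drive their transgenes in neurons, and the lists of neuronal genes had medians under 0.3 in size. The 10 genes of CA1 pyramidal neurons, the site of injection, had a median Log2FC of 0.054, with 0 higher and 0 lower at an unadjusted p under 0.05. In 12 genes of dentate granule neurons 3 were higher and 0 lower, against 4.89% and 5.47% of all genes, with a median of 0.20, or 0.12 without BEC-B544, and Calb1, the calcium-binding protein calbindin, stood at 109.6, 97.3, 88.8 and 106 CPM with rAAV-OVA and 98.8, 51.1, 77.6 and 65.9 CPM with rAAV-control (Log2FC 0.45, SE 0.19, or 0.29 without D743). Tdo2, a tryptophan-degrading enzyme of these neurons, had 6.71, 6.78, 4.71 and 7.00 CPM with rAAV-OVA and 5.78, 1.56, 2.57 and 2.80 CPM with rAAV-control (Log2FC 1.00, SE 0.35), with BEC-B541 lowest in its group. The 12 genes of CA2 and CA3 had a median of 0.16 with 2 higher and 0 lower, and the 14 interneuron genes of 0.10 with 0 and 0. All 12 Log2FC of the CA2 and CA3 genes were above 0, but 3 were below 0 without BEC-B542.

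All 13 genes of neuronal proteins that autoantibodies target in encephalitis had Log2FC above 0, from 0.019 to 0.27, with a median of 0.14 (0.13 in batch 1 and 0.11 in batch 2), but 3 were below 0 without BEC-B542 and the median was 0.058 without D683. Log2FC below 0 were found for 46.7% of all genes. At an unadjusted p under 0.05, 3 of the 13 were higher and 0 lower, against 4.89% and 5.47%. Pnma2, the Ma2 antigen, was the 1 gene of these without overlap, at 62.1, 64.7, 60.2 and 63.7 CPM with rAAV-OVA and 53.8, 44.2, 55.7 and 54.1 CPM with rAAV-control (Log2FC 0.27, SE 0.084). Gria2, an AMPA receptor subunit, stood at 438, 427, 602 and 662 CPM with rAAV-OVA and 403, 335, 509 and 508 CPM with rAAV-control (Log2FC 0.27, SE 0.08), and Gad2, which encodes GAD65, at 161 ± 42.9 CPM with rAAV-OVA and 146 ± 43.5 CPM with rAAV-control (SD, n = 4 each). Immediate early genes, which follow neuronal firing, had a median of −0.15, with 1 of 18 higher and 2 lower at an unadjusted p under 0.05, and Arc stood at −0.10 and Egr1 at −0.19. Of 17 late activity genes 2 were higher and 0 lower, with Nrn1, neuritin, at 233, 208, 191 and 232 CPM with rAAV-OVA and 189.5, 178, 168 and 181 CPM with rAAV-control without overlap (Log2FC 0.27, SE 0.082) and Bdnf at 0.32 (SE 0.14). Of 13 genes of neuronal injury 0 were higher and 0 lower, with a median of −0.18.

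Agreement between the batches was weak over all genes. The Log2FC of batch 1 and batch 2, each from 2 mice against 2, had a Pearson correlation of 0.269 and a Spearman correlation of 0.207 over 15648 genes, which are not independent replicates, and 56.6% of genes had the same sign in both. Over the 14689 genes with a mean of at least 1 CPM the Pearson correlation was 0.28. The Log2FC spread more widely in batch 1, with an SD of 0.521 against 0.367 and a median absolute value of 0.184 against 0.115. Within batch 1, which holds D743 and D684, the groups did not overlap for 2935 genes higher in rAAV-OVA mice (18.8%) and 2977 lower (19%), and within batch 2 for 2891 higher (18.5%) and 2753 lower (17.6%). By the medians given above, the proliferation, shared reactive astrocyte, Toll-like receptor, activated microglia, complement and neutrophil lists were below 0 in both batches, with activated microglia at −0.41 and −0.34 and neutrophil genes at −2.82 and −0.43. In the interaction test below, 8 of 16 neutrophil, 5 of 20 Toll-like receptor and 5 of 17 complement genes differed between the batches at an unadjusted p under 0.05. The counts were 4 of 22 for proliferation, 3 of 22 for activated microglia and 1 of 13 for shared reactive astrocytes, against 3.18% of all genes. The medians of the NF-kB and monocyte lists were −0.089 and −0.084 in batch 2 against −0.95 and −1.13 in batch 1, and that of the type I interferon list had the opposite sign.

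**Figure D5:**
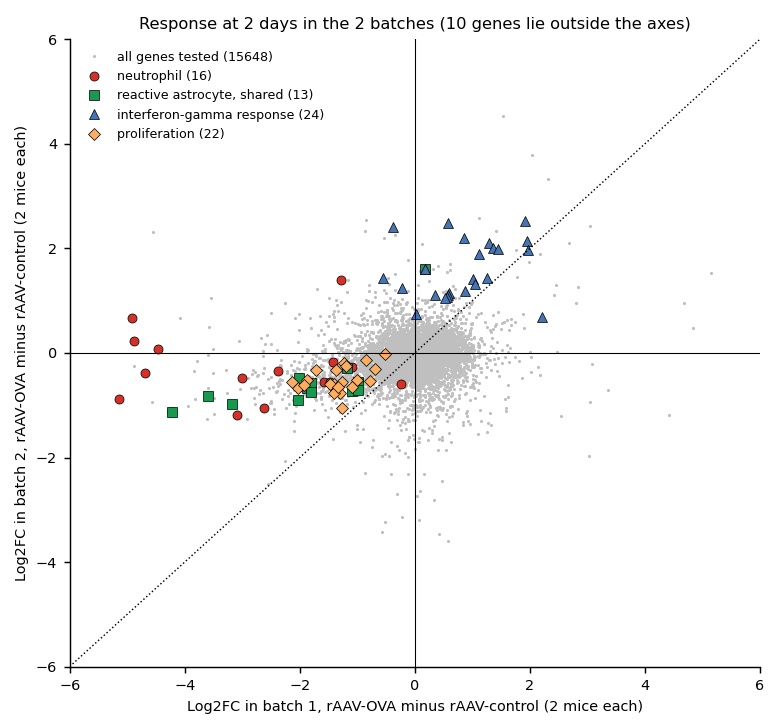
Log2FC of rAAV-OVA minus rAAV-control at 2 days in batch 1 (x axis) and batch 2 (y axis), 2 mice each, for all 15648 genes in grey, with 4 gene lists in colour and the line of equal values dotted. The 22 proliferation genes lie below 0 on both axes and the interferon-gamma response genes above 0 on the y axis, and 10 genes lie outside the axes.

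The difference in response between the batches was tested as an interaction. No gene met the DEG limits (0 of 15648, 0%), with 498 genes (3.18%) at an unadjusted p under 0.05, 361 of them (2.31%) with a higher response in batch 2, and DESeq2's Wald test gave 14. The share of 3.18% rested on the mice taken in and moved in both directions with 1 mouse left out. Such fits hold only 1 mouse of that vector and batch. The genes named by the lowest p included Ccl3, with a difference of 4.27 (SE 0.89) between the Log2FC of batch 2 and of batch 1, and Il17ra, the receptor of interleukin 17, at 7.61, 9.10, 15.8 and 13.6 CPM with rAAV-OVA and 20.3, 21.1, 15.8 and 14.4 CPM with rAAV-control, with a difference of 1.28 (SE 0.22). Gpx3, an extracellular glutathione peroxidase, had 4.96, 6.61, 3.45 and 3.03 CPM with rAAV-OVA and 30.1, 56.2, 3.93 and 5.17 CPM with rAAV-control (difference 2.42, SE 0.45), and Nfkbia had 1.26 (SE 0.27). In each of the 4 the batch 1 controls were the highest pair. On the other side stood Calb2, the calretinin gene of interneurons and mossy cells, with 28.6, 33.96, 13.9 and 14.98 CPM with rAAV-OVA and 9.03, 9.62, 11.8 and 18.9 CPM with rAAV-control (difference −1.83, SE 0.31), Nnat, neuronatin, with −1.24 (SE 0.29), and Acta2, the smooth muscle actin gene, with −1.60 (SE 0.33).

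More genes were called between the batches than between the vectors. With the vector as covariate, 890 genes (5.69%) met the DEG limits between batch 2 and batch 1, 80 higher (0.511%) and 810 lower (5.18%) in batch 2. This count rested on the mice taken in, since it was 1 without BEC-B541, 7 without BEC-B542, 268 without D740, 433 without BEC-R385 and 484 without D684. Over 15625 genes with a known transcript length, this difference had a Pearson correlation of 0.547 with log10 length, its median being −0.384 in the shortest 20% of genes and 0.253 in the longest 20%. For the response to the vector the correlation was −0.119 in batch 1 and 0.111 in batch 2. Of 20 ribosomal protein genes, which are short, 18 were called lower in batch 2, and their response was 0.43 in batch 1 and −0.11 in batch 2. The part of length in the weak agreement was not tested.

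Responses at 2 days differed from those at 5 days. The response, the Log2FC of rAAV-OVA against rAAV-control, was taken at 5 days and set against that at 2 days in a model of all 31 mice. In edgeR's test 2752 genes (17.6%) met the DEG limits, 1864 with a more positive response at 5 days (11.9%) and 888 with a more negative one (5.67%). All mice of 5 days were of batch 1, and with the batch 1 mice alone 2879 genes were called, 1889 more positive and 990 more negative, while without D743 and D684 there were 1989. The count of more negative genes depended on single mice, with 437 without D725 and 992 without D726. Of the lists that were lower at 2 days, 15 of 20 Toll-like receptor genes, 14 of 17 NF-kB genes, 13 of 13 shared reactive astrocyte genes, 15 of 17 complement genes and 22 of 22 proliferation genes had a response called more positive at 5 days. Their median Log2FC at 5 days were 1.78, 1.46, 2.31, 2.55 and 2.90. Each member of these lists had at least 15 counts in all 8 mice of 2 days, but for 1 Toll-like receptor gene. Of the 16 neutrophil genes, 10 did and 4 reached 15 counts in fewer than 4 of these mice, so the list had passed the filter in part through later mice and its count at 5 days is not given. Lcn2 had 6.48 (SE 1.67, FDR 0.00687) and Gfap 2.22 (SE 0.62, FDR 0.0122) as the difference of responses from edgeR. In the interferon-gamma list all 24 genes were called more positive at 5 days, with a median of 5.45 there, and Igtp differed by 3.50 (SE 1.19, FDR 0.0332). The call of Igtp was lost with any of 7 single mice left out and without D743 and D684, and that of Gfap with 2 surrogate variables and without D743 and D684. The genes of resting astrocytes had a median of −0.62 at 5 days, with 3 called more positive and 7 more negative.

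Some genes were named for the lowest p in the test of 2 against 5 days. More positive at 5 days were Pmepa1, an inhibitor of TGF-beta signalling, by 1.93 (SE 0.19, FDR 4.93e-06), Itga5, the fibronectin receptor subunit, by 4.68 (SE 0.57, FDR 0.000111), the transporter gene Atp13a4 by 1.52, the AMP deaminase gene Ampd3 by 1.99 and the kinetochore gene Cenpf by 3.39. More negative were Prodh, the proline oxidase gene, by −1.70 (SE 0.24, FDR 0.000267), the glycine decarboxylase gene Gldc by −1.20, the dehydrogenase genes Aldh6a1 and Ivd by −1.02 and −0.73, and the lysosomal protease gene Ctsf by −1.03. At 2 days Prodh stood at 19.5 ± 5.23 CPM with rAAV-OVA and 17.005 ± 4.20 CPM with rAAV-control (SD, n = 4 each), a Log2FC of 0.18 (SE 0.15), and Itga5 at 4.21 ± 1.31 CPM with rAAV-OVA and 11.4 ± 6.51 CPM with rAAV-control, a Log2FC of −1.44 (SE 0.42) that was −0.92 without D743.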

How the data were processed

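Left hippocampi of 31 mice were sequenced as TruSeq mRNA libraries on a NovaSeq. The deposited table holds estimated counts per gene, which the authors made with fastp, Salmon 1.8.0 on GENCODE M29 with GC bias correction and tximeta, and filtered to genes that reached 15 counts in 15 or more mice. The values are whole numbers without normalisation, and the 2 deposited copies differ in 0 cells. All columns were mapped by label (0 unused), and 824 of 15648 genes have no symbol. Libraries hold 19046977 to 57407902 counts, 20798247 to 31866682 at 2 days. Rounded estimated counts were tested with the quasi-likelihood test of edgeR 4.0.16 (R 4.3.3), TMM factors and robust dispersion, on the 8 mice of 2 days with vector and batch, with vector by batch for the difference between batches, and on all 31 mice with 8 groups and batch for 2 against 5 days. FDR is Benjamini-Hochberg adjusted over all genes. Fits were tested on simulated data. Principal components used log CPM of 500 genes with a prior count of 2.

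No 2 libraries of a group and batch agreed within sampling noise (chi-square over degrees of freedom 17.77 to 77.13). Replicates are separate mice, and p values measure the spread among them. Alternatives used DESeq2 1.42.0, limma 3.58.1, sva 3.50.0, ashr 2.2.63, other covariates, scaling, filters and mice left out. Leaving out D743 and D684 and the counts without them or without BEC-B542 were chosen after seeing the data. The members and gene lists were chosen with earlier results of these data known. Genes named were DEGs, up to 10 genes a direction with the lowest p, no overlap and a mean of at least 1 CPM, up to 3 members of each list with the lowest p and 2 with the highest level, defining markers of cell types, the 5 lowest p in each direction between batches and between 2 and 5 days, genes the study names, and Rag1. Other genes given, namely Tlr2, Tlr3, Tlr4, Tlr7, Tlr9, Irak4, Ticam1, Myd88, Tnf, Cfp, C2, Cxcl9, Cxcl10, Vim, Timp1, Trem2, Mki67, Ifit1, Isg15 and the Y-linked genes, were chosen after their values were seen. Transcript lengths came from GENCODE M21 for 15625 genes and promoters from RefSeq on GRCm38.p6, by symbol, while the counts use a later annotation, so no coordinates of the counts are given. The OVA and mCherry transgenes were not analysed here.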

Additional observations from a re-analysis of the deposited data

Results flagged for a closer look

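In 16 of 288 groups of 4 mice examined, 1 mouse lay far from the other 3, by a gap to its nearest neighbour that took up most of the range of the group, a number close to that of chance, which gives about 1 in 20 groups. Mouse D743 was that mouse for 7 rAAV-control groups, with the lowest value for Ddx3y (0.130 CPM), P2ry12 (16.4 CPM) and Pnma2 (44.2 CPM) and the highest for Csf3r (27 CPM), Cfp (25.7 CPM), Hspb1 (19.3 CPM) and Kcnj10 (630 CPM). Mouse D684 was the lowest rAAV-OVA mouse for Csf1r at 145 CPM, for H2-K1 at 79.1 CPM and for the complement list at a mean of 3.893 log2 CPM. The lowest rAAV-control mouse was BEC-B544 for Cxcl10 at 7.47 CPM and for Klrk1 at 0.332 CPM, BEC-R385 for Ttr at 578 CPM and D740 for Gm2446 at 0 CPM. D740 was also the highest rAAV-control mouse for Tmem30a at 340 CPM, and BEC-B541 the lowest rAAV-OVA mouse for Tdo2 at 4.71 CPM.

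The response to rAAV-OVA differed between 2 and 5 days by the edgeR test of the difference itself for 2752 genes. Among them the difference of Log2FC, 5 days minus 2 days, was 6.479 for Lcn2 (FDR 0.00687), 2.219 for Gfap (FDR 0.0122), 3.504 for Igtp (FDR 0.0332) and 7.742 for Cd8a (FDR 0.00445). Cd8a passed the filter of the deposited table through mice of later days, so its value carries that selection and is no independent result. It was 1.927 for Pmepa1, 4.684 for Itga5, 1.52 for Atp13a4, 1.993 for Ampd3 and 3.386 for Cenpf. It was below 0 for Prodh (−1.696), Gldc (−1.203), Aldh6a1 (−1.017), Ctsf (−1.026) and Ivd (−0.730).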

How the results depend on the processing

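The count of 0 DEGs at 2 days became 79 with DESeq2's Wald test, 10 with DESeq2, ashr and 2 surrogate variables on all 31 mice, 1 (Gm9797, higher) with limma voom, and 7 without D743 and D684 (Sulf1, Aqp1, Lbp, Col8a2, Igfbp2, Sostdc1 and Gm2446, all lower). With 1 mouse left out it ran from 0 to 3. It was 0 with no covariates, surrogate variables in edgeR, all 31 mice, DESeq2 size factors, 15 counts in every mouse, no limit on Log2FC and in each batch alone. Genes whose response differed between batches numbered 14 in DESeq2 and 0 to 6 with 1 mouse left out, 1 without BEC-B541 (Tgtp1) and 6 without D740 (Ddx3y, Kdm5d, Uty, Eif2s3y, Hp and a gene without a symbol). Genes that differed between batches numbered 3295 without a limit on Log2FC and from 1 to 1188 with 1 mouse left out. The total of 2752 genes that differed between 2 and 5 days stayed within 1.5 times under all settings. It ran from 2131 to 2848 with 1 mouse left out. The part more negative at 5 days, 888 genes in the main fit, moved further. It ran from 437 without D725 to 992 without D726 with 1 mouse left out. It was 418 without D743 and D684 and 1595 without a limit on Log2FC. Of the list medians, batch 1 alone gave −0.636 for type I interferon, −1.345 for complement and −2.821 for neutrophil genes, and batch 2 alone gave −0.257 for complement, −0.441 for neutrophil and −0.560 for proliferation genes. Complement stood at −0.264 without D743 and D684. With 1 mouse left out the median ran from −0.999 to −0.336 for complement, from −0.176 to −0.048 for resting astrocytes, from −2.195 to −1.321 for neutrophil genes, from 0.139 to 1.55 for the interferon-gamma response and from −0.504 to 0.233 for type I interferon. Of 14 genes named for 2 against 5 days, Gfap lost its call with 2 surrogate variables (1.599), Cd8a with batch 1 mice alone (8.617) and Gfap and Igtp without D743 and D684 (1.942 and 3.449). Igtp also lost it with any of D683, D684, BEC-R385, D723, D725, D745 or D755 left out (3.317 to 3.642), and Ivd without D725 (−0.641), with the same sign throughout. The cause of these shifts was not tested. No paired analysis was possible because the mouse names used as replicates occur in 1 group only.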

Other observations

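Genes of the tissue matrix and of wound repair had lower values in rAAV-OVA mice at 2 days in most members of their list. Of 22 tested, 8 were lower and 0 higher at an unadjusted p under 0.05, against 5.47% and 4.89% of all genes, and 2 were lower without overlap. Their median Log2FC was −0.67 (−0.80 in batch 1 and −0.37 in batch 2), and −0.37 without D743, where 6 were lower, against 3.08% of all genes. Of the 22 genes, 8 also stand in other lists, and the 14 in this list alone had a median of −0.39. Col4a1 and Col4a2, the chains of the main collagen of basement membranes, had Log2FC of −0.33 and −0.25, and Fn1, the fibronectin gene, stood at 75.9, 51.4, 131 and 67.7 CPM with rAAV-OVA and 89.5, 192, 100.02 and 160.4 CPM with rAAV-control, with −0.77 (SE 0.35), or −0.43 without D743. Fn1 was highest in D743, and its groups overlapped. The list of activated endothelium and leukocyte adhesion, which shares Lcn2 with other lists, had 3 of 16 lower and 0 higher, with a median of −0.45 (−0.76 in batch 1 and −0.19 in batch 2), but the 11 genes in this list alone had a median of −0.18, with −0.078 in batch 1 and −0.11 in batch 2. Vcam1, the adhesion molecule that holds T cells, had −0.37 (SE 0.17). Of genes of resting endothelial cells 0 of 16 were higher and 0 lower, with a median of 0.005, and of pericyte and smooth muscle genes 0 and 0 of 11, with −0.051. Fibroblast genes of the meninges had 2 of 16 higher, 0 lower and a median of 0.10.

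Receptors of the interleukin-1 and interleukin-6 families and targets of STAT3, which interleukin-6 receptors activate, had 4 of 16 lower, 0 higher and a median of −0.33 (−0.55 in batch 1 and −0.069 in batch 2), which was −0.18 with 2 lower without D743. At an unadjusted p under 0.05, 5.47% of all genes were lower and 4.89% higher, and 3.08% were lower without D743. Bcl3, an NF-kB co-regulator, had a Log2FC of −1.31 (SE 0.43) and Stat3 of −0.34 (SE 0.26), or −0.11 without D743. Macrophages of the brain borders had 3 of 10 genes lower and 0 higher, against 5.47% and 4.89% of all genes, with a median of −0.17, and 0 lower with −0.066 without D743. The median was −0.37 without BEC-B541. Ms4a7, which marks them, stood at 2.91, 3.82, 4.87 and 0.599 CPM with rAAV-OVA and 10.5, 18.03, 5.53 and 6.76 CPM with rAAV-control without overlap (Log2FC −1.62, or −2.46 without BEC-B541). Of the B cell, NK cell and mast cell lists only 2, 3 and 2 genes were tested. Genes induced by glucocorticoids had 3 of 18 lower and 0 higher, against 5.47% and 4.89% of all genes, with medians of −0.56 in batch 1 and 0.18 in batch 2. Their summed level was 1189, 997, 1113 and 1192 CPM with rAAV-OVA and 1871, 1922, 1074 and 1103 CPM with rAAV-control, so both controls of batch 1 were high and the other 6 mice lay together.

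At an unadjusted p under 0.05, 4.89% of all genes were higher and 5.47% lower, and the counts of the lists that follow stand beside these shares. Mitochondrially encoded genes had 4 of 13 higher and 0 lower, with a median of 0.18, and ATP8, a subunit of ATP synthase, stood at 827, 962, 975 and 680.1 CPM with rAAV-OVA and 432, 676, 423 and 522 CPM with rAAV-control without overlap (Log2FC 0.75). Nuclear genes of the respiratory chain had 0 of 20 higher and 0 lower, and their medians, 0.42 in batch 1 and −0.055 in batch 2, had unlike signs, as had those of the ribosomal protein genes. Cholesterol synthesis had 3 of 16 higher and 0 lower with a median of 0.050, and Insig1 and Sc5d were without overlap (Log2FC 0.17 each). The lists of the circadian clock (1 of 17 higher), heat shock and unfolded proteins (2 of 14 lower), hypoxia (0 of 12), myelin (0 of 12) and oligodendrocyte precursors (1 of 12 lower) had medians from −0.12 to 0.006. Of 21 genes named by the study for the mouse model, a list that is not independent of these mice, 5 were lower and 0 higher, against 5.47% and 4.89% of all genes.

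Tissue next to the hippocampus was compared by its markers. Choroid plexus and ependyma had a median of −0.77 over 16 genes, 0.076 in batch 1 and −1.68 in batch 2, with larger values without D684, as given above. The medians were −0.049 for thalamus, −0.12 for cortex and −0.028 for striatum, with 0, 2 and 0 genes lower of 10, 10 and 9, and 0 higher in each. Of all genes, 5.47% were lower and 4.89% higher at an unadjusted p under 0.05. Red blood cell genes had a median of −0.17 over 5, with 0 lower and 0 higher, and −0.43 with 3 lower without D743, against 3.08% of all genes in that fit. Gm2446, chosen after its values were seen, had 0, 0, 0 and 0 CPM with rAAV-OVA and 0, 3.86, 4.81 and 4.36 CPM with rAAV-control, at 0 in all rAAV-OVA mice and in 1 control.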
